A study of Mus musculus with 12 samples.

Results

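The data describe MLO-Y4 cells in ordinary culture, as the 3 arrays labelled control, of 12 arrays in the series. MLO-Y4 is an osteocyte-like mouse cell line derived from long bone. It is a single clone, immortalised by a viral T antigen transgene under the osteocalcin promoter, so it stands for osteocytes only in part. Control cells were seeded in wells of a plate and kept for 48 h in an incubator at the gravity of the earth and in its magnetic field, with no other treatment. The other 9 arrays hold cells of the same line cultured for 48 h in the bore of a superconducting magnet whose strong field has a large gradient (LG-HMF), at an apparent gravity of μ-g, 1-g or 2-g with 3 arrays each. These 9 are called magnet cultures here. The members were chosen by the label control alone, which uses no measured value.

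Total RNA was amplified and biotin-labelled, and the product was hybridised to arrays of the type Affymetrix Mouse Gene 1.0 ST. Levels are log2 values after RMA, in which a difference of 1 stands for a 2-fold change of signal. The 19938 genes with a transcript cluster of their own were ranked by their mean over the 3 control arrays. The labels call the replicates biological, and no source used here states whether each came from its own culture. The spread may thus be technical, and the number of arrays limits the precision. Correlation across genes between pairs of control arrays ran from 0.9975 to 0.9981, and between a control array and a magnet array from 0.9957 to 0.9981. Probes differ in how strongly they respond, so a rank describes the signal and not the amount of RNA. Fewer cells of a type and less RNA per cell cannot be told apart in such bulk samples.

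Osteocytes are the dendritic cells of mineralised bone, formed when osteoblasts bury themselves in matrix. Early osteocytes carry podoplanin and gap junctions along their processes, while mature osteocytes are known for the secreted regulators sclerostin and FGF23 and for the mineral-related proteins DMP1, PHEX and MEPE. They also steer osteoclasts through RANKL, osteoprotegerin and M-CSF.

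Signal that can be called background was set from 1239 genes of olfactory, vomeronasal, taste and trace amine receptors, which few cells outside the sensory organs use. Their median level in control was 5.16, and 95% of them lay at or under 6.31, which is the background limit here. Of all 19938 genes, 13619 (68.3%) had a mean above it. The limit is a loose one. Of 21 marker genes of neurons and hepatocytes, 6 were above it and 1 was above 7.49, the median of all genes, which 9969 genes (50.0%) exceeded. A level between 6.31 and 7.49 is therefore called intermediate and cannot be told from background in these data. Apoa2, an apolipoprotein of the liver, was the marker above 7.49, at 7.54.

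**Figure D1:**
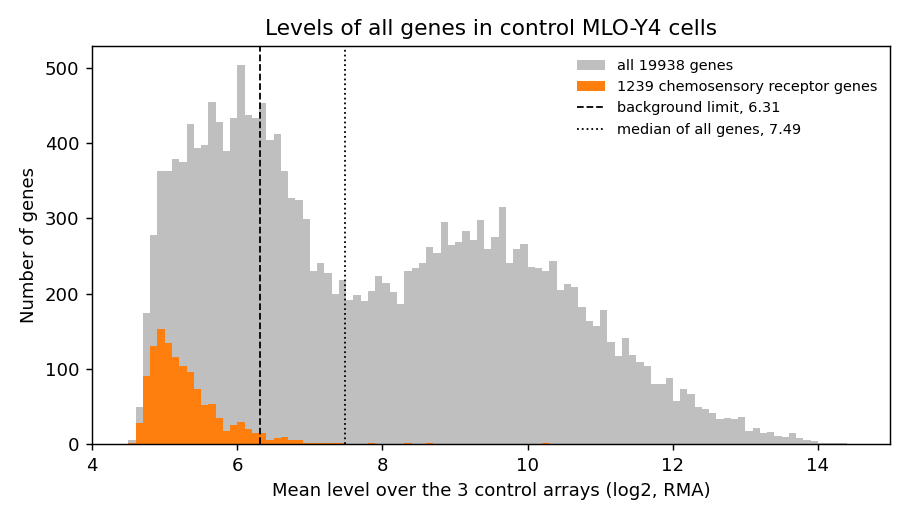
Number of genes (vertical axis) by mean log2 RMA level over the 3 control arrays (horizontal axis), for all 19938 genes in grey and the 1239 chemosensory receptor genes in orange. The receptor genes pile up at the low end around 5.16, left of the background limit of 6.31 (dashed), and the median of all genes, 7.49 (dotted), lies in the dip between the low and the high hump of the grey distribution.

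The 20 strongest signals in control came from housekeeping genes, non-coding RNA genes and a small set of stress and matrix genes. In order they were Rn7sk (a small nuclear RNA), Baiap2l1, Actb (cytoplasmic actin), Eef1a1, Fth1 (ferritin heavy chain), Saa3, Txn1, H4c4, Lcn2, Rplp1, Rpl10, Mt2, Lgals1, Ldha, Vim, Rpph1, Tpt1, Rpl28, Eef2 and Fn1, with means between 13.74 and 14.37. Among the 100 highest genes 17 encode ribosomal proteins. Saa3, an acute phase protein, stood sixth with levels of 13.95, 14.02 and 14.04 in control replicates 1 to 3. Lcn2, an iron-scavenging lipocalin of the innate response, was ninth with 13.93, 13.94 and 13.85. Both varied little between the 3 arrays. Vim (vimentin) and Fn1 (fibronectin) are general mesenchymal genes.

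The osteocyte genes split into 2 sets. Of 11 listed genes 8 were above 6.31 and 5 above 7.49, with a list median of 7.35 beside 7.49 for all genes. Pdpn, which encodes podoplanin of the osteocyte process, had levels of 12.13, 12.08 and 12.36. Gja1, which encodes the main gap junction protein of osteocytes, had levels of 12.08, 12.08 and 12.20. Capg (12.64 ± 0.02, SD, n = 3) and Dstn (12.36 ± 0.15), both regulators of actin filaments, and Cd44 (10.72 ± 0.09), a hyaluronan receptor, were also bright. These 5 genes lay far above both limits on all 3 arrays.

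The listed genes of secreted regulators and of mineral-related proteins lay lower. Sost (sclerostin, an inhibitor of Wnt signalling) had levels of 7.23, 7.43 and 7.38. Fgf23 (the phosphate hormone) averaged 6.91 ± 0.04, and Dkk1 (another Wnt inhibitor) averaged 6.51 ± 0.02. All 3 genes were intermediate on every array. Dmp1, which encodes an acidic matrix phosphoprotein, had levels of 5.53, 5.76 and 5.66. Phex, an endopeptidase needed for phosphate balance, had 5.44, 5.46 and 5.37, and Mepe, a matrix phosphoglycoprotein, had 5.05, 5.05 and 5.10. The signal of these 3 genes was inside the range of the silent receptor genes on every array. By rank, Pdpn was 473rd and Gja1 531st of 19938 genes, against 10283rd for Sost, 16520th for Dmp1 and 17434th for Phex. Pdpn, Gja1, Capg, Dstn and Cd44 were thus bright, while the mineral-related genes Dmp1, Phex and Mepe were at background. No other cell type was measured, so whether the bright genes set osteocytes apart was not tested.

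**Figure D2:**
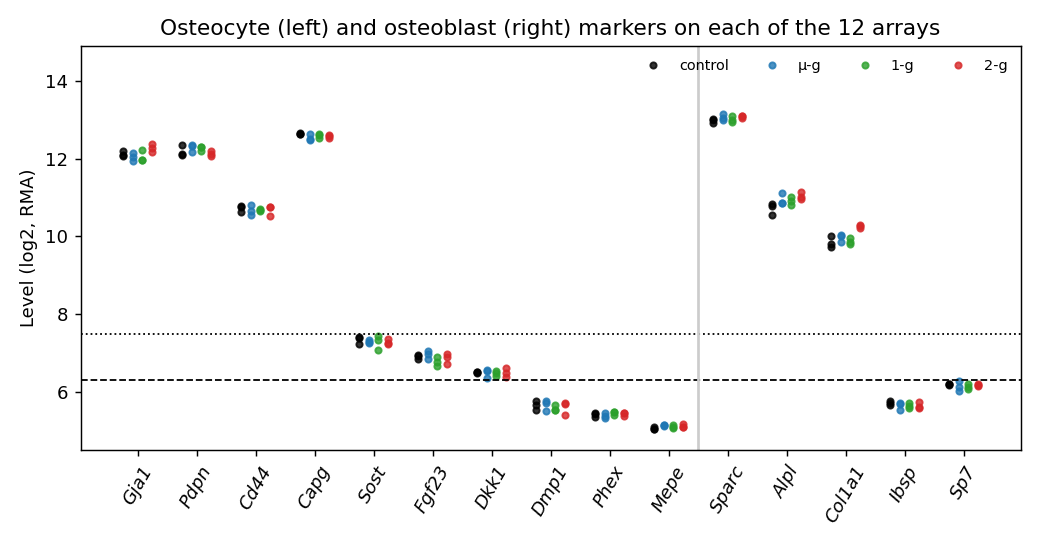
Log2 RMA level (vertical axis) of 10 osteocyte genes (left of the grey line) and 5 osteoblast genes (right) on each of the 12 arrays, 3 points per group, with control in black at the left of each gene. The dashed line is the background limit of 6.31 and the dotted line the median of all genes, 7.49, and the genes hold the same place in every group.

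The 5 marker genes lie in the RefSeq annotation of GRCm38.p6 at chr10:56377300-56390419 (Gja1), chr4:143267409-143299564 (Pdpn), chr5:104197575-104214102 (Dmp1), chr11:101962458-101967015 (Sost) and chrX:157162075-157415286 (Phex).

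Of 13 osteoblast genes 9 were above 6.31 and 6 above 7.49, with a median of 6.72. The other 6 genes of that list are not analysed here. Sparc (osteonectin) averaged 12.98 ± 0.06, Atf4 (a transcription factor of late osteoblasts) 11.13 ± 0.04, Alpl (tissue-nonspecific alkaline phosphatase) 10.72 ± 0.15 and Col1a1 (a type I collagen chain) 9.85 ± 0.15. Sp7 (osterix) had levels of 6.17, 6.21 and 6.20, and Ibsp (bone sialoprotein) had 5.68, 5.73 and 5.76. These were under the limit on all arrays, as were Bmp2 (5.38 ± 0.10) and Omd (5.13 ± 0.03), which encodes osteomodulin. Col1a2, the other chain of type I collagen, averaged 7.62 ± 0.04, just past 7.49. Thus signal of Alpl and Col1a1 stood beside background signal of osterix and bone sialoprotein.

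Among 10 regulators of osteoclasts 7 were above 6.31 and 5 above 7.49. Csf1, the gene of M-CSF, was the highest with 12.83, 12.74 and 12.82. Tnfsf11, which encodes RANKL, had levels of 10.12, 10.06 and 10.38, whereas its decoy receptor Tnfrsf11b (osteoprotegerin) had 6.50, 6.59 and 6.41. The ligand was far above the limits, and the decoy receptor was intermediate on every array. Sema3a and Il34 followed at 8.84 ± 0.18 and 8.27 ± 0.08, and Wnt16, Sfrp1 and Wnt5a were the lowest, at 6.15 ± 0.04, 6.04 ± 0.06 and 5.65 ± 0.06.

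The fibroblast genes as a group gave one of the higher lists. Of 23 measured genes 17 were above 6.31 and 14 above 7.49, and the list median was 9.62. Vim averaged 13.80 ± 0.07, Fstl1 (a secreted follistatin relative) 13.19 ± 0.03, S100a4 (a calcium-binding protein) 12.81 ± 0.23 and Pdgfrb (a PDGF receptor) 12.20 ± 0.07. Not all matrix fibroblast genes were bright. Dpt (dermatopontin, 5.76 ± 0.07), Postn (periostin, 5.56 ± 0.04) and Lum (lumican, 4.97 ± 0.05) lay under the limit.

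Muscle-type signal came from the actin-binding genes that many adherent cells share. Of 15 smooth muscle genes 14 passed 6.31 but 6 passed 7.49. The highest were Cald1 (caldesmon, 11.82 ± 0.03), Tpm1 (tropomyosin, 11.43 ± 0.15), Tpm2 (10.14 ± 0.07) and Smtn (smoothelin, 9.85 ± 0.04). Acta2, the smooth muscle actin, had levels of 7.78, 7.75 and 7.69, just past the median of all genes. Myocd (myocardin, the factor that drives smooth muscle genes) was at background with 5.85 ± 0.13. Of 26 striated muscle genes 17 passed 6.31 and 4 passed 7.49. Tnnt2, cardiac troponin T, stood alone with 10.06, 10.25 and 10.24, followed by Acta1 (7.73 ± 0.12), Actc1 (7.68 ± 0.04) and Tnnc1 (7.61 ± 0.09). Myh3, Myf5 and Myl1, an embryonic myosin, a myogenic factor and a myosin light chain, were the lowest, between 5.03 and 5.64. The other 22 genes of the list were intermediate or at background.

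The 3 lists of immune cell types together hold 57 measured genes, of which 24 were above 6.31 and 7 above 7.49. Among 27 macrophage genes 14 passed the first limit and 5 the second. These were Cd68 (a lysosomal glycoprotein, 9.64 ± 0.19), Clec4e (a C-type lectin receptor, 9.32 ± 0.33), Trem2 (a lipid receptor of myeloid cells, 9.24 ± 0.21), Cd14 (the lipopolysaccharide co-receptor, 9.14 ± 0.23) and Gpr84 (a fatty acid receptor, 8.93 ± 0.40). Other listed genes of the lineage lay lower, some of them intermediate. Csf1r averaged 7.38 ± 0.06 and Cd53 7.03 ± 0.19, and Lyz2 had levels of 7.12, 7.67 and 7.52, with a mean of 7.44. Ptprc, the pan-leukocyte surface antigen, had levels of 5.66, 5.68 and 5.75. Adgre1, the F4/80 antigen, had 5.45, 5.43 and 5.44, and Spi1, the master factor of myeloid cells, had 5.94, 5.81 and 5.87. Ptprc, Adgre1 and Spi1 were under the limit on every array, and so were Mrc1, Msr1 and Cd84, the lowest of the list.

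Of 14 lymphocyte genes 4 passed 6.31 and 0 passed 7.49, the highest being Cd3e, Cd8a, Pax5 and Zap70 at 6.51 to 6.63, and the lowest Il7r, Ms4a1 and Cd79a at 5.03 to 5.33. Of 16 granulocyte and mast cell genes 6 passed 6.31 and 2 passed 7.49. S100a8, a calcium-binding protein of neutrophils, had levels of 9.62, 9.24 and 9.31, and Camp (cathelicidin) averaged 8.02 ± 0.09. S100a9, the usual partner of S100a8, was at 6.04, under the limit. Mcpt8 (7.28) and Elane (6.54) were intermediate, and Cpa3, Fcer1a and Ms4a2 were the lowest, between 5.01 and 5.25.

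Osteoclast genes were likewise uneven. Of 12 genes 7 passed 6.31 and 5 passed 7.49. Ctsk, cathepsin K, which osteocytes are also known to use, had levels of 12.63, 12.47 and 12.52. Itgb3 (an integrin chain, 9.89 ± 0.12), Mmp9 (a gelatinase, 8.85 ± 0.12) and Nfatc1 (8.42 ± 0.06) followed. Acp5, tartrate-resistant acid phosphatase, was intermediate at 6.83 ± 0.03, and Calcr, Dcstamp and Atp6v0d2, genes of the calcitonin receptor, of cell fusion and of the proton pump, were at background between 5.51 and 5.64.

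Of the other skeletal lineages, chondrocyte genes passed 7.49 in 5 of 15 cases, led by Sox9 (10.28 ± 0.06), Col9a2, Col2a1 and Col9a3 (7.83 to 7.95), with Acan (aggrecan, 5.92), Matn1 (5.87) and Hapln1 (5.22) the lowest. Adipocyte genes passed in 4 of 10 cases, with Fabp4 at 10.77 ± 0.07, Pparg at 9.80 ± 0.05, Cebpa at 8.27 ± 0.07 and Retn at 7.68 ± 0.34, while Lep, Adipoq and Cd36 lay between 5.16 and 5.65. Both lists thus held members on either side of the limits. The transcription factors Sox9, Pparg and Cebpa passed 7.49, while products lay on both sides.

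Endothelial genes passed 7.49 in 1 of 11 cases, Egfl7 at 7.98, with Vwf, Flt1 and Cldn5 intermediate and Tek, Kdr and Emcn the lowest. Epithelial genes passed in 0 of 11 cases, with Cldn3, Krt18, Krt19 and Krt8 at 7.27 to 7.46 and Epcam, Grhl2 and Esrp1 at 5.77 to 5.97. Neuronal genes passed in 0 of 10 cases, with Slc17a7 (7.36), Syn1 (7.01) and Gad1 (7.0) intermediate.

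**Figure D3:**
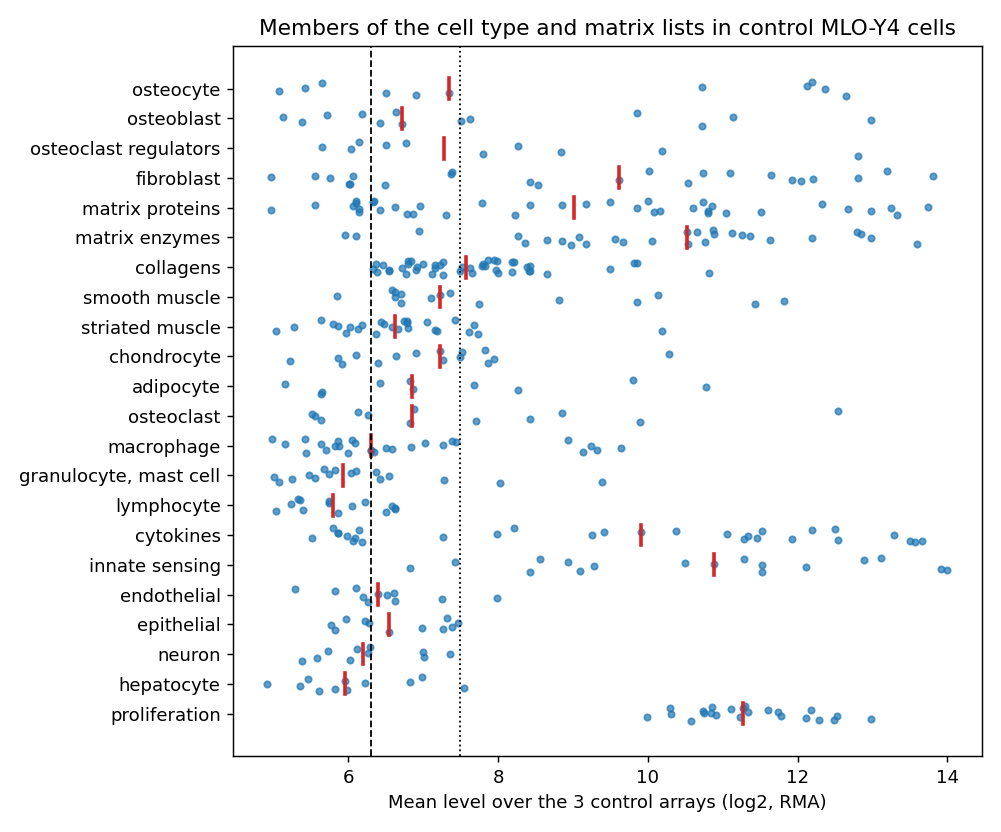
Mean log2 RMA level over the 3 control arrays (horizontal axis) of each measured member of 22 gene lists (rows), with 1 blue point per gene and a red bar at the median of the list. The cytokine, innate sensing, fibroblast, matrix enzyme and proliferation rows reach well to the right of the background limit (dashed, 6.31) and the median of all genes (dotted, 7.49), while the lymphocyte, neuron and hepatocyte rows stay around the limit.

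Control cells gave strong signal for many cytokine genes and for the machinery of innate sensing. Of 29 cytokine and chemokine genes 20 were above 6.31, which is 69.0%, close to the 68.3% of all genes. Above 7.49 were 19, or 65.5%, beside 50.0% of all genes. The list median was 9.91, beside 7.49 for all genes. The monocyte chemokine Ccl7 had levels of 13.70, 13.57 and 13.71, and Ccl2 had 13.51, 13.53 and 13.62. Mif (macrophage migration inhibitory factor) averaged 13.50 ± 0.07 and Ccl5 13.29 ± 0.18. The neutrophil chemokines Cxcl1 and Cxcl5 were at 12.54 ± 0.07 and 12.50 ± 0.02. Il6 had levels of 12.21, 12.25 and 12.12. At the other end, Il1b had 5.95, 5.67 and 5.78, and Ccl20, Cxcl16 and Tslp lay between 5.51 and 5.86. Cxcl12, a chemokine of marrow stroma, was also under the limit at 5.99.

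All 17 measured innate sensing genes were above 6.31 and 15 were above 7.49, with a median of 10.88. After Saa3 and Lcn2, the highest were Ptgs2 (cyclooxygenase of inflammation), with 13.13, 13.11 and 13.10, and Sod2 (mitochondrial superoxide dismutase), with 12.74, 12.92 and 12.99. Nos2, the inducible nitric oxide synthase, had levels of 11.99, 12.13 and 12.22. Nod2 (7.43) and Tlr9 (6.82) were the intermediate members. These levels describe the line in its serum-containing medium, and the part of other cells in them was not tested.

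Many such genes are known targets of NF-κB, and the promoters of Cxcl1 and Il6 are shown as examples of bright genes that hold its consensus motif. The windows run from 250 bases before to 50 bases after the start site on the strand of the gene in RefSeq (GRCm38.p6), 5′ to 3′, with the NF-κB match in capitals. The Cxcl1 window is chr5:90890995-90891294 on the + strand with 2 overlapping matches on opposite strands at -71 and -70 from the start, and the Il6 window is chr5:30012864-30013163 on the + strand with the match at -44.
Cxcl1: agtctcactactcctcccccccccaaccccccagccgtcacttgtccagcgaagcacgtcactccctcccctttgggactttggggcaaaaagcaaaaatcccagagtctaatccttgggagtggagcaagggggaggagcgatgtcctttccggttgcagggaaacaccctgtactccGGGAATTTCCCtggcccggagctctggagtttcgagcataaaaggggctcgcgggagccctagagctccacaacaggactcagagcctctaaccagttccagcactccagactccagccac
Il6: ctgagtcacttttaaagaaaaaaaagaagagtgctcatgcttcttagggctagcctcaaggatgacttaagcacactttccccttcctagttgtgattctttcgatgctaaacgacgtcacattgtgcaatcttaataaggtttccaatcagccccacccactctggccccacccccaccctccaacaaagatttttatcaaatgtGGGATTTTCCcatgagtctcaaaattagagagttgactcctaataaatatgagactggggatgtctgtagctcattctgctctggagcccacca
Of the 37 cytokine and sensing genes above 6.31, 30 have a window in the table, and 11 of these (36.7%) hold the motif on either strand. The share is 8.2% of all 27025 promoters and 10.5% of the 10818 promoters of genes above 6.31. In the 38-gene hypoxia list described below it is 21.2%. Of its genes among the 20 most variable, 8 have a window, and 3 of these (37.5%) hold the motif. The cytokine and sensing lists hold known targets of NF-κB, so their share is no independent result. A match is a description of the letters and not a binding site.

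Most genes of matrix proteins and of the enzymes that shape the matrix gave signal above background. Of 38 matrix genes 31 were above 6.31 and 23 above 7.49, with a median of 9.01. Fn1 averaged 13.74 ± 0.02, Bgn (biglycan) 13.32 ± 0.04, Ecm1 (extracellular matrix protein) 13.25 ± 0.08 and Sparc 12.98 ± 0.06. Tnn, Postn and Lum were the lowest, between 4.97 and 6.07. Of 28 genes of matrix enzymes and inhibitors 26 were above 6.31 and 25 above 7.49, with a median of 10.52. Mmp2, the gelatinase, averaged 13.59 ± 0.06, Lox, the collagen crosslinker, 12.98 ± 0.17, Pcolce, which enhances procollagen cleavage, 12.84 ± 0.14 and Timp1, an inhibitor of metalloproteinases, 12.79 ± 0.17. Mmp12 and Timp4 were under the limit at 6.11 ± 0.06 and 5.96 ± 0.09.

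The collagen chains formed a list of their own. All 44 measured chains passed 6.31, and 23 passed 7.49, with a median of 7.57 that lay close to that of all genes. The highest was Col8a1, a short-chain collagen, with 10.95, 10.83 and 10.68. Col1a1 had levels of 9.74, 10.01 and 9.80, and Col1a2, its partner in type I collagen, had 7.57, 7.65 and 7.64. Col6a1 and Col6a2 of the beaded filaments averaged 9.82 ± 0.16 and 9.50 ± 0.15. That 21 chains were intermediate means that the count of 44 says little about which chains are made.

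Proliferation genes were uniformly bright. All 23 passed both limits, between 9.99 and 12.98, with a median of 11.27. Pcna averaged 12.98 ± 0.06, Rrm2 12.53 ± 0.02, Mcm2 12.48 ± 0.07 and Ccna2 12.28 ± 0.07. The 5 measured genes of the pathways that the viral T antigen acts on also passed both limits, from 8.63 to 10.82. Mature osteocytes in bone are known not to divide.

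The 3 control arrays were close to each other for nearly all genes. The median SD over the 13619 genes above 6.31 was 0.082 in control, against 0.085 in μ-g, 0.085 in 1-g and 0.076 in 2-g. Only 20 genes (0.147%) had an SD above 0.5 in control, against 6 in μ-g, 21 in 1-g and 10 in 2-g. The 20 genes were chosen for their spread, so the values below describe them and carry no test. The smallest SD among them was 0.50, and Slc7a11, at 0.50, Enpp3 and Aldoc, both at 0.48, lay just outside.

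Among the 20 genes, 9 belong to the 38-gene hypoxia list, which holds known targets of the hypoxia-inducible factor HIF. The list makes up 38 of the 13619 genes above 6.31. It was chosen with earlier results of these data known, so its counts here and below are no independent result. The counts of 20 and 9 depended on single arrays. Without control replicate 1, 16 of 32 variable genes were hypoxia genes. This was 7 of 34 without control replicate 2 and 5 of 40 without control replicate 3. Car9, a carbonic anhydrase at the cell surface, varied the most, with 7.76, 9.01 and 7.15 in control replicates 1 to 3 (SD 0.95). Ndufa4l2, a mitochondrial protein, had 8.94, 10.04 and 8.18, and Tmem45a, a membrane protein, had 10.51, 10.69 and 9.22. From the lowest to the highest control array this is a range of 3.64-fold for Car9, 3.61-fold for Ndufa4l2 and 2.76-fold for Tmem45a. Ndrg2, Pdk1 (a kinase that holds back pyruvate dehydrogenase), Ak4 (adenylate kinase), Bnip3 (a mitophagy receptor), Mgarp and Fam162a had SDs between 0.52 and 0.75. All 9 were highest in control replicate 2 and lowest in control replicate 3. Their SD in control was 1.89 to 3.98 times the pooled SD within the magnet groups, with a median of 2.57.

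The highest members of the list were Ldha (13.83 ± 0.14), Aldoa (13.41 ± 0.09), Pgk1 (13.19 ± 0.20) and Bnip3l (13.17 ± 0.09), of which the first 3 are glycolytic enzymes. The order of the arrays extended over the whole hypoxia list. Of 38 genes 31 were highest in control replicate 2 and 30 lowest in control replicate 3. The median deviation of the list from the mean of control was 0.02, 0.27 and -0.22 in replicates 1 to 3, while all genes together deviated by -0.008, 0.005 and -0.001. Within the magnet groups the same median stayed between -0.07 and 0.08, so it was smaller there but in the same order. It was highest in replicate 2 of each magnet group (0.08) and lowest in replicate 3 (-0.06, -0.07 and -0.07 in μ-g, 1-g and 2-g). The median SD of the list was 0.337 in control, against 0.134 in μ-g, 0.133 in 1-g and 0.115 in 2-g. Control had the largest SD of the 4 groups for 31 of the 38 genes, beside 24.6% of all genes above 6.31. What set replicates 2 and 3 apart was not tested.

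**Figure D4:**
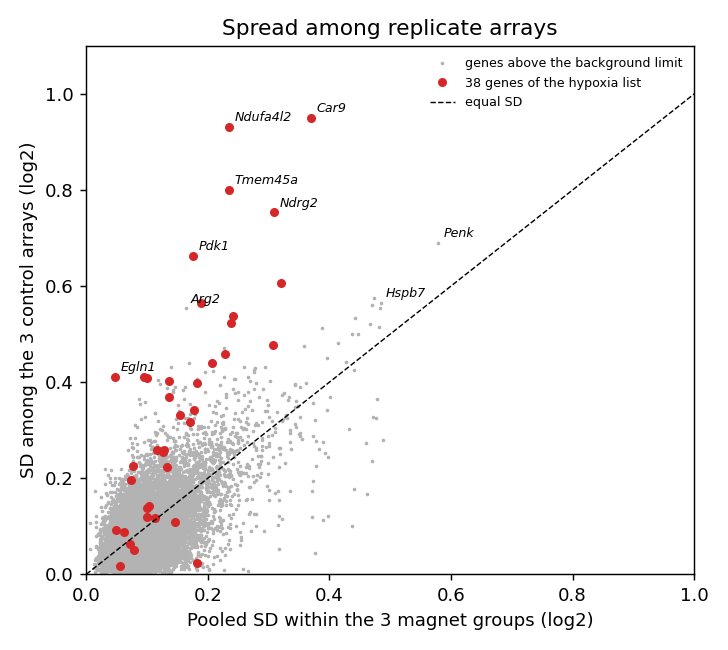
SD among the 3 control arrays (vertical axis) against the pooled SD within the 3 magnet groups (horizontal axis), both in log2 units, for each gene above the background limit (grey) and the 38 genes of the hypoxia list (red), with the line of equal SD dashed. The red points of Car9, Ndufa4l2, Tmem45a, Ndrg2 and Pdk1 lie far above the line, while Penk and Hspb7 lie near it.

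Promoters of 4 of these genes are shown, because they hold the motif ACGTG, letters that HIF is known to bind. No other form of the HIF core was searched, so the counts below are for this motif alone. Windows are as above, with the motif in capitals, read on either strand as ACGTG or CACGT. Car9 lies at chr4:43506776-43507075 (+ strand, match at -18), Bnip3 at chr7:138909457-138909756 (- strand, 2 overlapping matches on opposite strands at -108 and -107), Mgarp at chr3:51396498-51396797 (- strand, -219) and Fam162a at chr16:36071512-36071811 (- strand, -81).
Car9: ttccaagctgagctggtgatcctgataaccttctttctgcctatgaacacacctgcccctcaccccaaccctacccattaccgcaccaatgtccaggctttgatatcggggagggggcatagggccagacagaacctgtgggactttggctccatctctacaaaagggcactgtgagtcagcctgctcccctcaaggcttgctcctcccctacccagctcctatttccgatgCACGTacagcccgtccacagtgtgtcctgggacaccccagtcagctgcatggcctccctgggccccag
Bnip3: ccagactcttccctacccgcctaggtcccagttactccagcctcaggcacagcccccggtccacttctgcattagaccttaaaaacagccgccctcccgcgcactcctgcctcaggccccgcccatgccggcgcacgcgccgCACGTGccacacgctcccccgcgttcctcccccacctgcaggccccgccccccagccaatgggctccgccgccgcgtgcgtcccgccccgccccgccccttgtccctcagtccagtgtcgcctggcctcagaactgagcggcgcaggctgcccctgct
Mgarp: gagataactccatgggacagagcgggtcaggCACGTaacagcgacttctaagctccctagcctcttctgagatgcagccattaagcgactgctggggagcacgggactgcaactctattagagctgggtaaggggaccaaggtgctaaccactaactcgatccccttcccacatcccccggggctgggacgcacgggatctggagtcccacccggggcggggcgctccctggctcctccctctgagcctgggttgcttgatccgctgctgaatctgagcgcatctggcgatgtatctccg
Fam162a: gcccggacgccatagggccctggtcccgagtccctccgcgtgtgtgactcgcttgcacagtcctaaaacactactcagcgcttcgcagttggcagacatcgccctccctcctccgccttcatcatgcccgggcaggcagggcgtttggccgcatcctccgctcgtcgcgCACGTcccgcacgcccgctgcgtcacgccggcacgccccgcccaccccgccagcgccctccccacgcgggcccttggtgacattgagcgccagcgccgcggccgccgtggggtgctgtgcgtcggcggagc
Of the 9 variable hypoxia genes 8 have a window, and 4 of these hold the motif. In the whole list it is in 19 of 33 windows (57.6%), beside 19.7% of all promoters and 25.2% of those of genes above 6.31. The list was drawn up from known HIF targets, so its share is no independent result.

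The other 11 variable genes behaved differently. Of these, 9 were lowest in control replicate 1, and none was lowest in replicate 3. Penk (proenkephalin) had levels of 7.46, 8.75 and 8.52, and Crabp1 (a retinoic acid binding protein) had 10.37, 11.30 and 11.42. Hspb7 (a small heat shock protein), Gpnmb (a transmembrane glycoprotein), Lbp (lipopolysaccharide binding protein), Ifi27l2a (interferon-induced), Serpina3n (a protease inhibitor) and Ndufaf1 (an assembly factor of respiratory complex I) shared the low replicate 1, and Slc7a3 (an amino acid transporter) and Avil (advillin) were lowest in replicate 2. For 10 of the 11 the ratio of the SD in control to that in the magnet groups was between 1.07 and 1.32. Arg2, mitochondrial arginase, was the exception with 7.60, 7.86 and 8.67 in control and a ratio of 3.39.

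These genes also varied among the magnet arrays, and with the same replicate numbers. Over the 20 genes and 3 magnet groups, the replicate number that was highest in control was also highest in the magnet group in 52 of 60 cases (86.7%), beside 48.5% over all genes above 6.31. For the lowest replicate it was 45 of 60 (75.0%), beside 46.6%. No source used here states what the replicate numbers stand for.

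**Figure D5:**
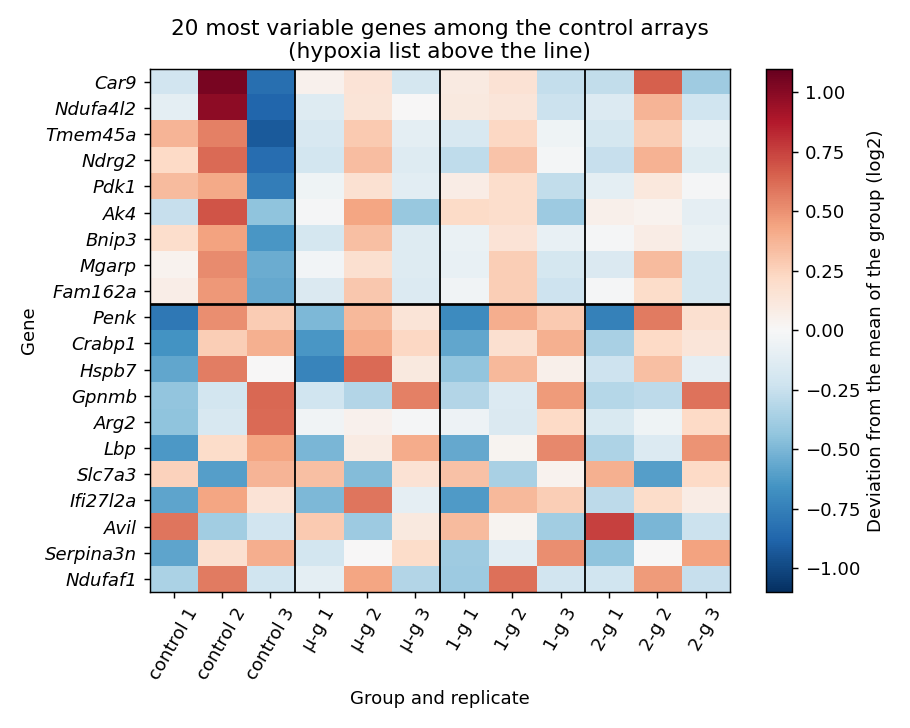
Deviation of each array from the mean of its own group (colour, log2) for the 20 genes with the largest SD among control arrays (rows) on the 12 arrays (columns, control at the left). In the 9 hypoxia rows above the line, control replicate 2 is red and replicate 3 blue, with paler colours in the magnet groups. Replicate 2 is the highest in most of these magnet groups too. Most of the 11 rows below the line repeat their pattern by replicate number in every group.

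Lastly, the baseline was set against the rest of the series, to show where it differs. With limma, control minus the mean of μ-g, 1-g and 2-g, 98 of 19938 genes (0.492%) were higher and 188 (0.943%) lower in control at an adjusted p under 0.05, and 2989 passed at an unadjusted p under 0.05. With quantile normalization the split was 122 higher and 119 lower. The counts depended on single arrays, with 46 genes called without control replicate 3 (34 of them among the 286), 74 without control replicate 1 (60 among the 286) and 87 without control replicate 2 (74 among the 286). With the replicate number fitted as a block, 1412 genes were called, 454 higher and 958 lower. The magnet field, the bore and the altered gravity of the μ-g and 2-g groups cannot be told apart in this contrast.

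Genes of the skeletal and mesenchymal lists were then read against this background. The osteocyte, osteoblast, osteoclast, osteoclast regulator, fibroblast, muscle, cartilage, fat, collagen and matrix protein lists hold 203 distinct genes. Of these, 0 were called by limma, beside 1.43% of all genes, a share so small that the count says little about these lists. At an unadjusted p under 0.05, 7 of the 203 were higher and 20 lower, which is 13.3% beside 15.0% of all genes. The list of matrix enzymes is not among these lists. Of its 28 genes 1, Adamts4, was called lower by limma, and 7 were lower at an unadjusted p under 0.05. With the replicate number fitted as a block, 18 of the 203 were called (3 higher, 15 lower), 8.87% beside 7.08% of all genes. Gja1 averaged 12.12 ± 0.07 in control, against 12.13 over the magnet groups, and Pdpn 12.19 ± 0.15 against 12.23. Sost averaged 7.35 ± 0.10 in control, against 7.29, Dmp1 5.65 ± 0.11 against 5.62, and Phex 5.42 ± 0.05 against 5.43. The adjusted p of the 5 markers lay between 0.773 and 0.994, with differences from -0.04 ± 0.06 (SE) to 0.06 ± 0.07 log2 units. The test does not show that these levels are equal.

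Some myeloid-type and cytokine genes were higher in control. Of 27 macrophage genes 3 rose, Clec4e, Gpr84 and Clec4d, and none fell, beside 0.492% of all genes higher and 0.943% lower. The lists were chosen with earlier results of these data known, so such counts are no independent result. Clec4e had levels of 9.65, 9.0 and 9.32 in control, against 7.55 to 8.99 (median 8.34) in the 9 magnet arrays, a difference of 0.97 ± 0.18 (SE, limma adjusted p = 0.0231). The groups did not overlap, though control replicate 2 lay just above the highest magnet array. Gpr84 had 9.34, 8.53 and 8.91 in control, against 6.97 to 8.71 (median 8.01), and the groups overlapped (0.97 ± 0.18, limma adjusted p = 0.0231). Both genes were lowest in 2-g, with means of 7.82 for Clec4e and 7.11 for Gpr84. Without control replicate 1, without control replicate 3 or without 2-g replicate 3 they were no longer called, with limma adjusted p between 0.052 and 0.108. Clec4d, a related lectin receptor, averaged 7.26 ± 0.23 in control, against 6.80 (0.45 ± 0.10, limma adjusted p = 0.0473), and lost its call in 9 of the 12 fits without 1 array, with adjusted p up to 0.239. The defining genes Ptprc, Adgre1 and Spi1 stayed under 6.31 in control, as given above. The part of any such cells in these differences was not tested.

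S100a8 had levels of 9.62, 9.24 and 9.31 in control, against 8.59 to 9.20 (median 8.86) in magnet arrays, without overlap (0.52 ± 0.09, limma adjusted p = 0.0188). Of 29 cytokine genes 4 rose, Ccl3, Il1rn, Tnf and Il6, and none fell, beside 0.492% of all genes higher and 0.943% lower. At an unadjusted limma p under 0.05, 10 cytokine genes were higher and 1 lower. Of 17 innate sensing genes 0 were higher and 5 lower by that measure, and of all 19938 genes 986 were higher and 2003 lower. Ccl3, a macrophage chemokine, had 11.17, 11.19 and 11.53 in control, against 9.59 to 10.97 (median 10.88), a difference of 0.70 ± 0.11 (limma adjusted p = 0.011). Its 3 control arrays lay above all magnet arrays, and 2-g had the lowest mean, 9.95. Il1rn, the antagonist of the interleukin 1 receptor, had 7.86, 8.03 and 8.08 in control, against 7.30 to 7.84 (0.43 ± 0.06, limma adjusted p = 0.011). Il6 differed by 0.24 ± 0.05 and Tnf by 0.30 ± 0.06 (limma adjusted p = 0.0409 and 0.0396). Tnf averaged 9.41 in control, against 9.28 in μ-g, 9.30 in 1-g and 8.75 in 2-g, and its control arrays (9.57, 9.38 and 9.28) overlapped with the magnet arrays, which reached 9.38. Tnf lost its call in 9 and Il6 in 10 of the 12 fits that leave out 1 array, with limma adjusted p up to 0.138 and 0.148. Without control replicate 3, limma adjusted p was 0.0633 for Ccl3, 0.0633 for Il1rn and 0.0589 for S100a8, and without control replicate 1 it was 0.0717 for S100a8.

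Of 38 hypoxia genes 3 rose against the magnet mean, Cox7a1, Car12 and Pgk1, and none fell, beside 0.492% of all genes higher and 0.943% lower. The median difference of the list was 0.21, beside -0.01 for all genes. The magnet mean hides opposite groups. Pgk1, a glycolytic enzyme, averaged 13.19 ± 0.20 in control, against 12.54 ± 0.05 in μ-g, 12.62 ± 0.09 in 1-g and 13.46 ± 0.07 in 2-g. Cox7a1, a subunit of respiratory complex IV, averaged 9.41 ± 0.40 in control, against 8.01 ± 0.19, 8.17 ± 0.08 and 9.89 ± 0.24 in μ-g, 1-g and 2-g. For 35 of the 38 genes (92.1%) control lay above μ-g and 1-g and below 2-g, beside 7.97% of all genes above 6.31. The list was chosen with earlier results of these data known, so this share is no independent result. Car12, another carbonic anhydrase, was among the 3 exceptions, with 8.15 ± 0.46 in control against 7.11 ± 0.26, 7.11 ± 0.12 and 7.95 ± 0.28. In the 12 fits without 1 array, the call was lost in 5 for Cox7a1, 8 for Car12 and 10 for Pgk1. Without control replicate 1 the limma adjusted p was 0.0764 for Cox7a1, 0.147 for Car12 and 0.138 for Pgk1, and without control replicate 2 it was 0.0864, 0.158 and 0.184.

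A pair of further list genes fell in control. Adamts4, a protease that cleaves aggrecan, averaged 8.27 ± 0.05 in control, against 8.53 over the magnet groups (-0.26 ± 0.06, limma adjusted p = 0.0473), and Mdm2, the regulator of p53, averaged 10.82 ± 0.08, against 11.12 (-0.30 ± 0.06, limma adjusted p = 0.0367). Both had control arrays below all 9 magnet arrays. In the 12 fits without 1 array, the call was lost in 9 for Adamts4 and in 10 for Mdm2, with limma adjusted p up to 0.147 and 0.139.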

How the data were processed

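Affymetrix Mouse Gene 1.0 ST arrays were used for 12 RNA samples of MLO-Y4 cells, 3 each for control, μ-g, 1-g and 2-g. The authors normalized the raw data by Robust Multi-Chip Average (RMA), and the deposited table holds the log2 level of 28856 transcript clusters. RMA fits all arrays together and pulls array distributions alike, so a shift of all genes would not be seen. Raw intensities and detection calls were not used here.

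Clusters were paired with current mouse symbols. 21789 have 1 symbol, 1621 several and 5446 none, and 83 gene identifiers had no match. Where a gene had several clusters (999 genes), the cluster brightest on average over all 12 arrays stood for it. Clusters of related genes may share signal. The background limit is the 95th percentile of 1239 chemosensory receptor genes in control.

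The 24 gene lists and the members were chosen with earlier results of these data known. Named are the 20 highest genes, of each list the 4 highest members and up to 3 of the lowest at background, the 5 osteocyte markers, the 20 most variable genes and up to 4 called members of a list, all where 5 or fewer. Other genes are named from those lists after their values were seen.

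Levels and spread were computed with pandas 2.3.3 and numpy 2.4.6 in Python 3.11.15. For the contrast, limma 3.58.1 (R 4.3.3, functions lmFit and eBayes) estimated the 4 group means from the 12 arrays, with 8 residual and 4.92 prior degrees of freedom and Benjamini-Hochberg adjustment over all genes. Its two-sided p-values cover only the spread from sample to sample. The scripts were tested on simulated data. No pair of arrays held identical values. Alternatives were other limits, normalizations, cluster choices and filters, the replicate block and leaving out each array.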

Additional observations from a re-analysis of the deposited data

How the results depend on the processing

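The count of genes above the background limit (13619) stayed between 9969 and 13619 and that of distinct list members (328 of 440) between 221 and 328 under all alternatives. At the median of all genes, the counts of 13 of the 24 lists moved by over 1.5 times, among them collagens (23 of 44), smooth muscle (6 of 15) and osteocyte genes (5 of 11). The number of genes with an SD above 0.5 in control (20) was 16 to 20 with other normalizations and filters, and 32 to 40 when 1 control array was left out. Of these, 16 were hypoxia genes without control replicate 1 and 5 without control replicate 3.

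Genes called in control against the magnet cultures numbered 286, with 204 to 376 under the other normalizations and filters. With quantile normalization 50.6% of calls were higher in control, against 34.3% in the fit as reported. Leaving out 1 array gave 46 to 467 calls, lowest without control replicate 3 and highest without μ-g replicate 2. With the replicate number as a block there were 1412 calls (454 higher, 958 lower), which held all 286. Same-numbered arrays correlated above 0.1 in their deviations in 17 of 18 pairs, from 0.0179 (control and μ-g replicate 3) to 0.4989, with all pairs above 0.1 in 5 of the 6 pairs of groups. By the rule that every pair must pass, the block was not used as the main fit, though the data hint at pairing. With the block, 18 of the 203 skeletal and mesenchymal genes were called (3 higher, 15 lower, 8.87%), beside 7.08% of all genes and 0 in the fit as reported. Of the 14 list genes called, each kept its direction and lost its call in at least 1 of its fits, 84 times on leaving out 1 array and 8 times otherwise, with adjusted p from 0.0508 to 0.239. Fits without 1 control array rest on 2. Array signal near background limits what is said of genes below 7.49.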

Other observations

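Genes of body position were looked at after their values were seen. Of 37 Hox genes 30 were above 6.31 and 17 above 7.49. The highest were Hoxd10 (9.66 ± 0.08, SD, n = 3), Hoxa11 (9.39 ± 0.09), Hoxa9 (9.32 ± 0.02), Hoxa10 (9.28 ± 0.14) and Hoxc10 (9.21 ± 0.17), posterior members of their clusters, while Hoxb3, at 7.45, was the highest gene of the HoxB cluster. Pitx1 and Tbx4, which mark the hindlimb in embryos, averaged 8.94 ± 0.18 and 8.27 ± 0.09, and Tbx5, which marks the forelimb, had 5.48, 5.77 and 5.82, under the limit. Tbx15 (11.63 ± 0.03), Tbx18 (10.37 ± 0.08) and Shox2 (9.06 ± 0.15), further limb genes, were bright. Hoxc9 averaged 8.49 ± 0.02 in control, against 8.20 in the magnet cultures (0.29 ± 0.05 SE, limma adjusted p = 0.0244), and its call was lost without any 1 of the control arrays or without 2-g replicate 3 (adjusted p 0.0559 to 0.124).

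Xist, the RNA of the inactive X chromosome, had levels of 5.49, 5.32 and 5.40, and the Y-linked genes Eif2s3y, Kdm5d and Uty averaged 4.77, 5.33 and 5.00, so both kinds were under the background limit. Of the 1239 receptor genes 62 passed 6.31 and 4 passed 7.49. The 4 were Olfr810, with 10.24, 10.32 and 10.27, Olfr767 (8.67), Olfr1174 (8.39) and Olfr239 (7.82). Of 52 keratin genes 3 passed 7.49, led by Krt80 at 9.45 ± 0.07.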
